A study of Mus musculus with 9 samples.

Results

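Lcor, Hipk2, Lmbrd2, Lnpep, Atp7a, Klhl11, Tiam1, Pdpr, Cpeb4 and Etnk1 are 10 of the 18657 genes measured in mouse kidney cortex. They were chosen by their values in these libraries, for large rises against control in kidneys without Vhl in the proximal tubule or in kidneys of mice given streptozotocin (STZ). All 10 passed the filter on low values, which kept 14437 genes. The rule set no numerical limit, and 184 other genes had at least the smallest change of the 10 in both groups. The study asked how loss of Vhl in the proximal tubule and early type 1 diabetes change the kidney, alone and together. Mice of 4 groups, all labelled male, were sequenced. VHLΔPT carried floxed Vhl alleles and a Cre recombinase driven by the Sglt2 promoter, which is active in the early proximal tubule and recombines in a mosaic of its cells, and received citrate buffer (2 libraries). The con/STZ group carried the floxed alleles without Cre and received STZ, a toxin of insulin-producing cells, in 2 injections at 12 weeks of age (2 libraries). VHLΔPT/STZ carried floxed Vhl and the Cre and received STZ in the same way (2 libraries). The con group carried the floxed alleles without Cre and received buffer (3 libraries). All mice were littermates on a mixed C57BL/6 and FVB background, tissue was taken 10 weeks after injection, and each library held pooled RNA of 2 mice, so errors given here are between pools and not between mice.

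The VHL protein marks hypoxia-inducible factor (HIF) alpha subunits for destruction when oxygen is plentiful, so that cells without it keep HIF and switch on genes of glycolysis, iron uptake and vessel growth. The 10 genes do not form 1 pathway. Those that act on gene expression are Lcor, a corepressor that binds ligand-activated nuclear receptors, Hipk2, a nuclear kinase that phosphorylates p53, and Cpeb4, an RNA-binding protein that controls poly(A) tail length and translation. Lmbrd2, Lnpep and Atp7a encode membrane proteins, Klhl11 and Tiam1 encode an adaptor and an exchange factor of signalling complexes, and Pdpr and Etnk1 act in pyruvate and phospholipid metabolism.

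The values are quantile normalized gene counts, which the authors forced to nearly equal totals of 21951722 to 21952234 per library, so read depth is unknown. Vhl itself had 434 and 470 in VHLΔPT, 501 and 527 in con/STZ, 516 and 516 in VHLΔPT/STZ, and 522 to 555 in con. Its change in VHLΔPT (log2 change -0.24, SE 0.09, adjusted p = 0.145, limma) did not pass the test. The values count reads over the whole gene and over all cells of the cortex, in most of which Vhl is not deleted. Of all marker lists, that of the proximal tubule, the main cell type of kidney cortex, had the highest sum in every group. Some libraries stood apart. The con/STZ 2 library had 3205 for Xist, the transcript of an inactive X chromosome, against 0 to 6.22 in the other 8 libraries, although all mice were labelled male. The Y-linked genes Ddx3y and Uty had 498 and 298 there, 1005 and 586 in con/STZ 1, and 480 to 637 and 340 to 384 in con. Whether the con/STZ 2 pool held a female mouse was not tested. Values also followed gene length to a different degree in each library. Across genes, log10 exon length correlated with a library's deviation from the average library at 0.19 to 0.27 in VHLΔPT and con/STZ, 0.18 and -0.06 in VHLΔPT/STZ 1 and 2, and -0.46 to -0.19 in con, lowest in con 3.

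Since HIF binds the letters ACGTG or GCGTG, the 250 bases before each start site were searched for both, on both strands (RefSeq, GRCm38.p6). All 10 genes matched a window, and 8 of them held at least 1 match, against 59.2% of the 10853 tested genes with a window. Each motif holds a CG pair. The windows of the 10 genes had a median of 20 CG pairs, against 14 over all windows. The part of this in the count was not tested. ACGTG stood before Lcor, Atp7a and Pdpr, 3 of the 10 genes, against 24.2% of all. Hipk2 and Lmbrd2 had no match in their windows, which says only that these letters were not found there. The 3 stretches with ACGTG are shown because they hold these letters, and each stretch ends before the first annotated transcript start. Capitals mark each match to ACGTG or GCGTG on either strand, and neighbouring matches overlap.
Lcor (chr19:41482432-41482636, + strand): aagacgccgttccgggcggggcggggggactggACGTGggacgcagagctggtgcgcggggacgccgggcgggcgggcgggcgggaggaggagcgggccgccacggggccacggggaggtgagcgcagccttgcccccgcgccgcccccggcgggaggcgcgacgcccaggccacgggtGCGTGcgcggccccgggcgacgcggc
Atp7a (chrX:106026974-106027223, + strand): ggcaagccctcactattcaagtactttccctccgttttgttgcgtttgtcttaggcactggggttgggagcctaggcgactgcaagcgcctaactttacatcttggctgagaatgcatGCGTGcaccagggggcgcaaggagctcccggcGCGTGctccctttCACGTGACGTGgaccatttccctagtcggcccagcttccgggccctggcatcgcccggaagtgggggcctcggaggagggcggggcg
Pdpr (chr8:111094495-111094629, + strand): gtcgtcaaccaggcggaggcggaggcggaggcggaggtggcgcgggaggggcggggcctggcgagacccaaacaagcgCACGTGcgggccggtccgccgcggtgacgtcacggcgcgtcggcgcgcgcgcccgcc
The Atp7a stretch of 250 bases held 5 match starts, and the shorter ones of Lcor (205 bases) and Pdpr (135 bases) held 2 each. The full Lcor window of 250 bases held 3. HIF binding is not part of these data, so the matches describe sequence alone.

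The regulators of gene expression had the largest and some of the smaller changes of the 10. Lcor (ENSMUSG00000025019, chromosome 19 from 41482637 to 41562261, GRCm38) showed normalized counts of 170 and 151 in VHLΔPT, 236 and 244 in con/STZ, 178 and 97.4 in VHLΔPT/STZ, and 29.9, 51.2 and 29.2 in con. Every library of the 3 other groups lay above every con library, and the con/STZ pair lay above all others. In bulk cortex, more cells of a type and more RNA per cell cannot be told apart. The group means were 4.36-fold, 6.52-fold and 3.75-fold that of con in VHLΔPT, con/STZ and VHLΔPT/STZ. Hipk2 (chromosome 6 from 38694390 to 38876165) had 1041 and 901 in VHLΔPT, 1163 and 1345 in con/STZ, 902 and 483 in VHLΔPT/STZ, and 281, 309 and 188 in con. Its con/STZ libraries were again the highest, and VHLΔPT/STZ 1 was close to the VHLΔPT libraries while VHLΔPT/STZ 2 fell between them and con. Cpeb4 (chromosome 11 from 31872211 to 31935634) had 2578 and 2464 in VHLΔPT, 4036 and 3641 in con/STZ, 3260 and 2388 in VHLΔPT/STZ, and 1376, 1349 and 975 in con. Here the VHLΔPT/STZ libraries spanned the VHLΔPT pair. Values of 6 of the 10 genes are uncertain where reads could be shared. Hipk2 overlaps Tbxas1, Lmbrd2 overlaps Skp2, Etnk1 overlaps 1700126G02Rik, Pdpr overlaps 9430091E24Rik and Tiam1 overlaps the pseudogene Gm2805 on the opposite strand, Lnpep overlaps Gm49784 on its own strand, and the strand setting of the counting is not given in the sources used here.

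The membrane proteins had means of 3.04-fold to 4.14-fold that of con in VHLΔPT and con/STZ. Lmbrd2, a protein of the LMBR1 family that has been tied to adrenergic receptor signalling, had 1132 and 1069 in VHLΔPT, 1045 and 1163 in con/STZ, 976 and 567 in VHLΔPT/STZ, and 300, 348 and 242 in con. The VHLΔPT and con/STZ libraries overlapped each other and stood 3.71-fold and 3.72-fold above con by their means. Lnpep, the insulin-regulated aminopeptidase that travels with the glucose transporter GLUT4 and degrades vasopressin and oxytocin, had 605 and 507 in VHLΔPT, 554 and 621 in con/STZ, 511 and 278 in VHLΔPT/STZ, and 187, 155 and 112 in con. Its VHLΔPT and con/STZ libraries overlapped as well. Atp7a, the copper-exporting ATPase mutated in Menkes disease, had 379 and 327 in VHLΔPT, 483 and 478 in con/STZ, 332 and 212 in VHLΔPT/STZ, and 121, 147 and 80.1 in con. For Atp7a the con/STZ pair was higher than VHLΔPT, with 4.14-fold and 3.04-fold the con mean.

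Klhl11, a Kelch adaptor of the cullin 3 ubiquitin ligase, had the lowest normalized counts of the 10, without regard to length. It had 74.5 and 60.0 in VHLΔPT, 92.2 and 109 in con/STZ, 75.3 and 39.9 in VHLΔPT/STZ, and 22.2, 23.2 and 19.7 in con. Its con libraries differed by only 1.18-fold between the highest and the lowest, against 1.91-fold for Pdpr. Tiam1, a guanine nucleotide exchange factor that activates Rac1, had 202 and 193 in VHLΔPT, 156 and 189 in con/STZ, 133 and 169 in VHLΔPT/STZ, and 58.8, 96.4 and 72.4 in con. Tiam1 was highest in VHLΔPT, and its 3 altered groups lay close together at 2.60-fold, 2.28-fold and 1.99-fold the con mean. Pdpr, the regulatory subunit of pyruvate dehydrogenase phosphatase, was the only other gene with its highest mean in VHLΔPT. It had 1537 and 1300 in VHLΔPT, 1301 and 1374 in con/STZ, 1291 and 698 in VHLΔPT/STZ, and 567, 689 and 361 in con. The VHLΔPT/STZ 2 library stood barely above con 2.

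Etnk1, which phosphorylates ethanolamine in the first step of the CDP-ethanolamine route to phosphatidylethanolamine, went its own way. It had 3589 and 4110 in VHLΔPT, 7969 and 7986 in con/STZ, 4540 and 5608 in VHLΔPT/STZ, and 2473, 2709 and 2577 in con. The con/STZ libraries were alike and far above the rest, at 3.08-fold the con mean, whereas VHLΔPT reached 1.49-fold. Per kilobase of exon, Etnk1 (183) and Cpeb4 (194) had the highest con levels of the 10 and Lcor (4.65) the lowest.

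**Figure D1:**
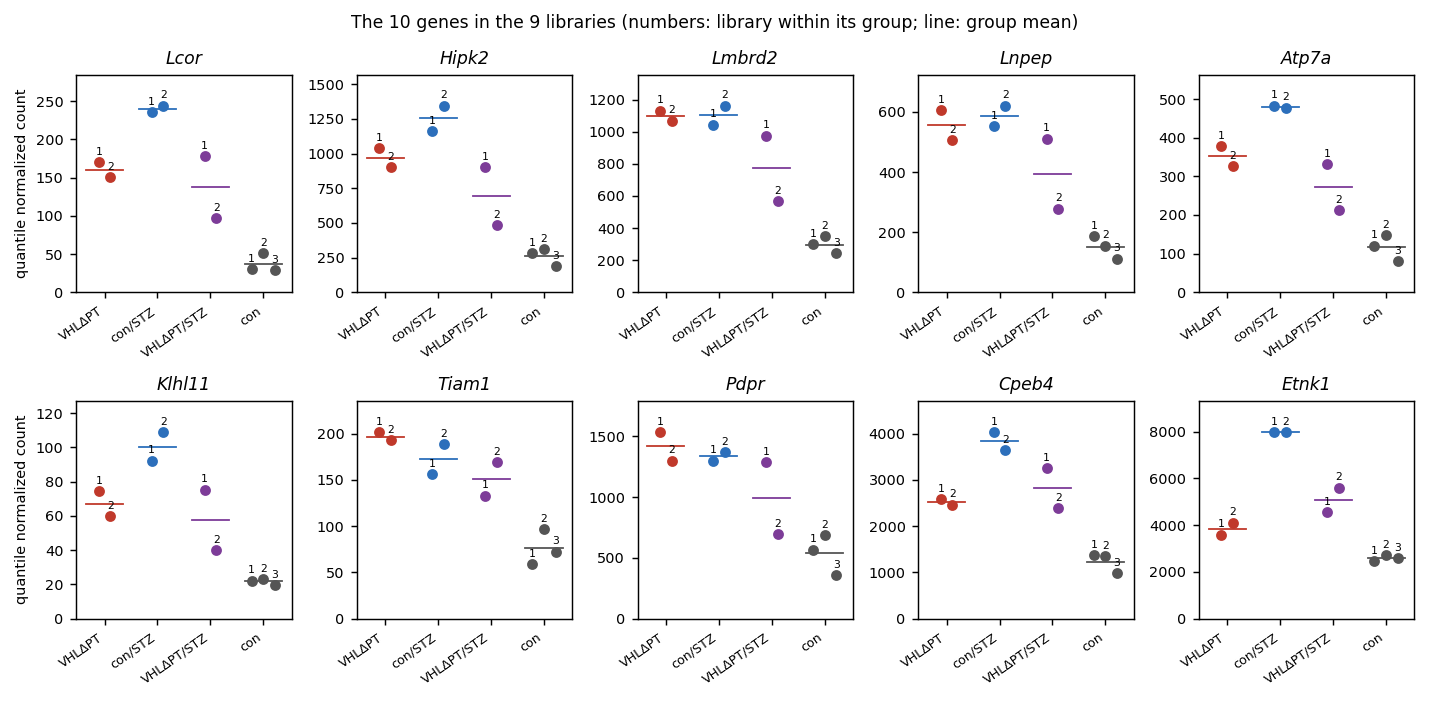
Quantile normalized count (y axis, from 0) of each of the 10 genes in VHLΔPT, con/STZ, VHLΔPT/STZ and con, 1 point per library with its number and a line at the group mean. All VHLΔPT/STZ points lie above all con points in each panel, and VHLΔPT/STZ 2 is the lower of its pair except for Tiam1 and Etnk1.

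Since these values chose the genes, the changes in VHLΔPT and con/STZ are given with no test. On the log2(value + 1) scale, the median over the 10 genes was 1.61 in VHLΔPT against con, between 0.57 for Etnk1 and 2.14 for Lcor. In con/STZ against con it was 1.94, between 1.20 for Tiam1 and 2.72 for Lcor. The median of all genes tested was -0.02 in both. Among the 14437 genes, Lcor ranked 16 from the highest rise in VHLΔPT and 25 in con/STZ, whereas Etnk1 ranked 1121 and 143. Only 2 genes outside the 10 exceeded Lcor in both groups. In con/STZ 8 of the 10 genes had their highest mean. The rule used these values, which favours such a count, and the share over all genes was not counted.

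The VHLΔPT/STZ libraries were the only ones the rule did not use, although the con, VHLΔPT and con/STZ libraries they are set against were, and the 3 comparisons with con share its libraries. Choosing genes low in con favours higher values in VHLΔPT/STZ than in con, and choosing genes high in VHLΔPT or con/STZ favours lower values in VHLΔPT/STZ than in those groups. The counts of the 10 genes, their p-values and the shares over all genes below therefore stand side by side as a description. In VHLΔPT/STZ against con all 10 genes had a positive log2 change, with a median of 1.27 and a range of 0.86 to 1.86, against a median of -0.01 over all genes. Both VHLΔPT/STZ libraries lay above all 3 con libraries for 10 of 10 genes, against 19.0% of all genes tested. Calls needed a fold over 1.5 and, over all genes tested, a Benjamini-Hochberg adjusted p below 0.05 (limma, two-sided). Lcor, Lmbrd2, Cpeb4 and Etnk1 passed, 4 of 10, against 0.693% of all genes called higher in this comparison. The Etnk1 change was 0.96 (SE 0.11, adjusted p = 0.0253, limma), that of Cpeb4 1.19 (SE 0.17, adjusted p = 0.0363, limma), that of Lcor 1.86 (SE 0.31, adjusted p = 0.0445, limma) and that of Lmbrd2 1.34 (SE 0.22, adjusted p = 0.0453, limma). The largest change did not have the smallest p, because Etnk1 varied least between libraries. Hipk2, Lnpep, Atp7a, Klhl11 and Tiam1 had changes of 1.00 to 1.38 and adjusted p of 0.0510 to 0.0569 (limma), and Pdpr had 0.86 (SE 0.30, adjusted p = 0.127, limma). Of the 10 genes, 0 passed when any 1 library of con, VHLΔPT or con/STZ was left out, 3 without VHLΔPT/STZ 1 and 1 without VHLΔPT/STZ 2, while the changes stayed between 0.42 and 2.30. With the gene length trend taken out 0 passed as well (smallest adjusted p = 0.0712, limma), with changes of 0.69 to 1.73.

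Against con/STZ, VHLΔPT/STZ had lower values for all 10 genes, but 0 passed, against 0.00693% of all genes tested (limma, 1 gene). The log2 changes ran from -0.92 for Hipk2 to -0.20 for Tiam1, with a median of -0.65 against 0.00 over all genes, and adjusted p from 0.669 to 0.869 (limma). At an unadjusted p under 0.05, 7 of the 10 were below the threshold, as were 957 of the 14437 genes tested. Both VHLΔPT/STZ libraries lay below both con/STZ libraries for 9 of the 10 genes, all but Tiam1, against 18.9% of all genes tested. Etnk1 had the smallest error, with a change of -0.66 (SE 0.12, 95% interval -0.94 to -0.39, unadjusted for the number of genes). For Tiam1 the interval was -0.76 to 0.36, and the data do not show that con/STZ and VHLΔPT/STZ were alike for it.

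Against VHLΔPT, VHLΔPT/STZ had lower values for 8 genes and higher ones for Cpeb4 (0.15, SE 0.19) and Etnk1 (0.39, SE 0.12). None of the 10 passed, against 0.00693% of all genes tested (limma). At an unadjusted p under 0.05, 2 of the 10 were below the threshold, as were 1593 of the 14437 genes tested. The changes ran from -0.57 for Pdpr to 0.39 for Etnk1, with a median of -0.40, and adjusted p from 0.375 to 0.785 (limma). Both VHLΔPT/STZ libraries lay below both VHLΔPT libraries for Lmbrd2, Tiam1 and Pdpr, 3 of the 10, against 23.1% of all genes tested. For Lcor, Klhl11 and Cpeb4 the direction turned when 1 VHLΔPT/STZ library was left out, with 0.16 for Lcor and 0.17 for Klhl11 without VHLΔPT/STZ 2 and -0.08 for Cpeb4 without VHLΔPT/STZ 1.

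**Figure D2:**
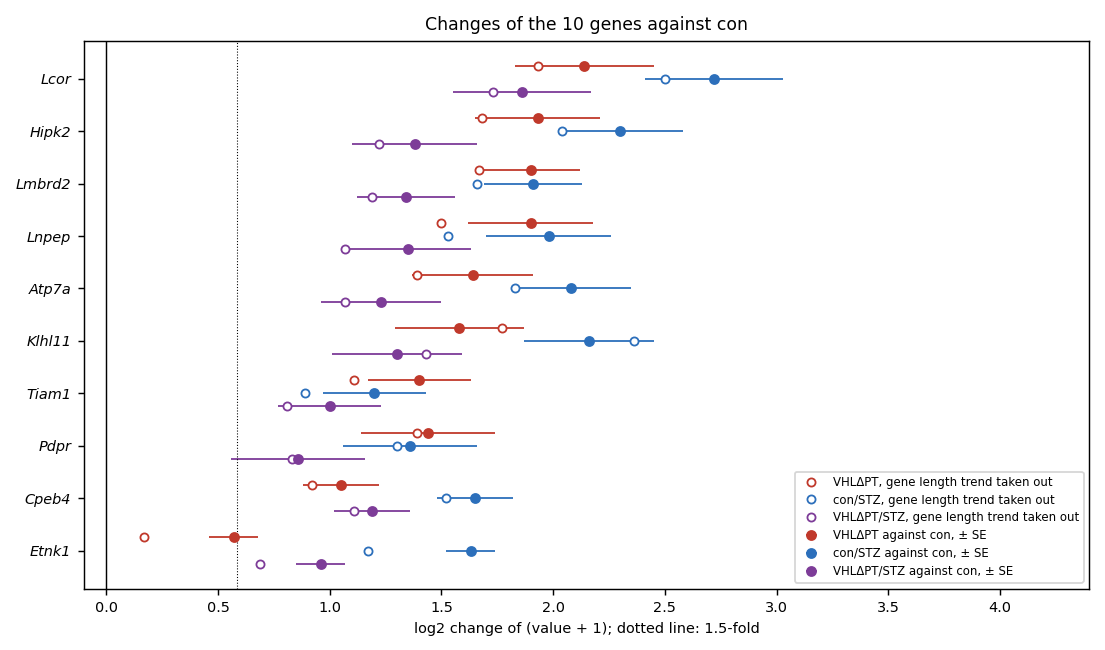
Log2 change (x axis) of each gene in VHLΔPT, con/STZ and VHLΔPT/STZ against con, filled points with the standard error as a bar, and open points after the gene length trend of each library was taken out. The purple VHLΔPT/STZ points span 0.86 to 1.86, all right of the dotted line at 1.5-fold, and the open points lie left of the filled ones except for Klhl11.

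Within groups, the same library was lower for most of the 10 genes. VHLΔPT/STZ 2 was the lower of its pair for 8 of the 10, against 51.9% of all genes tested, with Tiam1 and Etnk1 as the exceptions. The con 3 library was the lowest con library for 8 of the 10, against 37.3% of all genes, again with Tiam1 and Etnk1 as the exceptions. VHLΔPT 2 was the lower of its pair for 9, all but Etnk1, against 50.1%. Averaged over the 10 genes, the log2 deviation from the 9-library average was 0.58 and 0.44 in VHLΔPT, 0.80 and 0.90 in con/STZ, 0.49 and -0.08 in VHLΔPT/STZ, and -1.01, -0.79 and -1.33 in con. The libraries stood in nearly the same order by their length correlation, with con 3 lowest, VHLΔPT/STZ 2 between con and the rest, and con/STZ highest. Choosing genes low in con and high in VHLΔPT or con/STZ favours this order of those groups by the 10 genes. The likeness of these orders is therefore a description. The part of gene length in these values was not tested beyond taking its trend out, after which the mean deviations were 0.49 and 0.37 in VHLΔPT, 0.71 and 0.81 in con/STZ, 0.43 and -0.04 in VHLΔPT/STZ, and -0.89, -0.72 and -1.15 in con.

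Most of the 10 genes had long transcripts. The rule did not name length, but over all genes the changes against con were higher in longer genes, so choosing large rises favours long genes. Their median exon length (all annotated exons merged) was 8662 bases against 4307 over the genes tested, and 9 of the 10 were above that median. Etnk1 (14151 bases) and Lnpep (14144 bases) were the longest, and Klhl11 (2393 bases) was the exception. The 3′ untranslated part of the longest coding transcript had a median of 3363 bases in the 10 genes against 1133 in all, from 250 bases in Klhl11 and 302 in Atp7a to 8339 in Lnpep. Its share of A and T was above the median of all genes (55.3%) in 9 of the 10, up to 65.7% in Cpeb4. Cytoplasmic polyadenylation elements, the letters TTTTAT or TTTTAAT that CPEB proteins bind, were found in 9 of the 10, all but Klhl11. Long sequences hold such letters by length alone, and of the 3954 genes with at least 2000 such bases 91.7% had one. Cpeb4 itself had 11 TTTTAT and 6 TTTTAAT, or 4.14 per 1000 bases, the most of the 10, against a median of 1.16 in those genes. The 8 of the 10 with at least 2000 such bases had a median of 1.74. Among them Lcor (0.671), Hipk2 (1.07) and Pdpr (0.970) were below 1.16. Lmbrd2 (1.91), Lnpep (2.40), Tiam1 (2.99) and Etnk1 (1.57) were above it, as was Cpeb4.

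Over all genes, the median change of a length class was higher in longer classes. In con/STZ against con, the median log2 change was -0.37 among the 2189 genes under 2000 bases and 0.49 among the 778 genes of at least 12000, and 1.87% and 38.0% of these were called higher. In VHLΔPT against con the medians were -0.34 and 0.41, and in VHLΔPT/STZ against con -0.22 and 0.32. The 10 genes stood near the top of their own length class. Large rises against con chose the genes, which favours such places, so these ranks are a description. In VHLΔPT/STZ against con, 6 of the 1933 genes of 6000 to 8000 bases had a larger change than Lcor, 6 of the 1144 genes of 8000 to 10000 bases a larger one than Hipk2, and 46 of the 4402 genes of 2000 to 4000 bases a larger one than Klhl11. Pdpr and Etnk1 stood lowest in VHLΔPT/STZ by share, with 95 of 3412 and 24 of 778 genes above them. Etnk1 in VHLΔPT was the exception, with 236 of 778 genes above it. With the length trend taken out, its VHLΔPT change was 0.17, in place of 0.57, while its con/STZ change was 1.17. Over the 10 genes, the medians after this step were 1.45 in VHLΔPT, 1.59 in con/STZ and 1.09 in VHLΔPT/STZ.

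**Figure D3:**
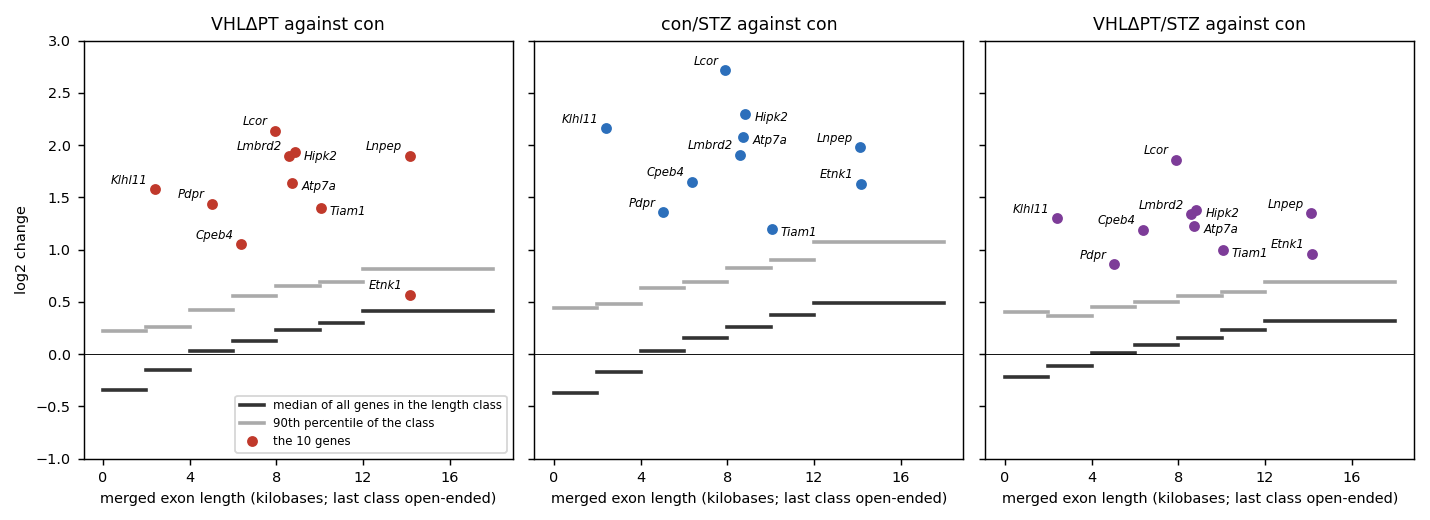
Log2 change against con (y axis) and merged exon length in kilobases (x axis) of the 10 genes in VHLΔPT, con/STZ and VHLΔPT/STZ, with the median (dark) and 90th percentile (grey) of all genes in each length class. The medians climb with length in each panel, to 0.41, 0.49 and 0.32 in the longest class, and every gene lies above its grey line except Etnk1 in VHLΔPT. The genes were chosen for rises against con, which favours these positions.

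Across the 9 libraries the log2 values of the 10 genes moved together. The 45 pairwise correlations ran from 0.64 for Pdpr and Etnk1 to 0.99 for Hipk2 and Atp7a, with a median of 0.96 and of 0.94 once the length trend was out. The libraries share the group differences that chose the genes, so these correlations are a description. Etnk1 (0.806) and Tiam1 (0.873) had the lowest correlation with the mean of the other 9 genes. Outside the 10, the profiles most like their mean belonged to the Src-family kinase Yes1 (r = 0.995), the zinc finger gene Plagl1 (0.995), the chromatin remodeler Atrx (0.994), the spliceosome core protein Prpf8 (0.993), the Golgi protein Trip11 (0.993) and the tight junction scaffold Tjp1 (0.993). Of these, Plagl1 and Atrx had the largest changes, 1.62 and 1.39 in con/STZ. All 6 had at least 7461 exon bases, and 6.10% of the genes tested reached an r of 0.9, so this profile was not particular to the 10.

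Partners of the 10 genes were read from 10 lists of 178 genes, of which 170 were tested. In VHLΔPT against con 7 of these rose and 0 fell, or 4.12% and 0%, against 1.66% and 0.277% of all genes called higher and lower. In con/STZ against con 26 rose and 6 fell, or 15.3% and 3.53%, against 8.79% and 6.87% of all genes. In VHLΔPT/STZ against con 4 rose and 0 fell, or 2.35% and 0%, against 0.693% and 0.319% of all genes. Those that rose in con/STZ had a median exon length of 7902 bases, against 5664 over the list genes tested. With the length trend taken out, 0 list genes were called in VHLΔPT, 22 in con/STZ and 0 in VHLΔPT/STZ (limma). Leaving out any 1 library of VHLΔPT or con/STZ, or con 1 or con 3, also gave 0 in VHLΔPT, and 11 were called there without either VHLΔPT/STZ library. In VHLΔPT/STZ, 0 were called without any 1 library other than VHLΔPT/STZ 1, and 8 without that one. In con/STZ, 17 were called without con/STZ 1 and 18 without con/STZ 2.

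Among nuclear receptor corepressors, 2 of 12 rose in con/STZ. Nrip1 (RIP140), which like Lcor binds receptors through short leucine motifs, had 693 and 750 in VHLΔPT, 1039 and 995 in con/STZ, 989 and 809 in VHLΔPT/STZ, and 527, 460 and 408 in con. It was the only list gene of this group called in each of the 3 groups, with log2 changes of 0.64, 1.13 and 0.95. Ncor1, the scaffold of the repressor complex with Hdac3, rose by 0.64 in con/STZ (adjusted p = 0.0495, limma), a call lost with the length trend out (0.23, adjusted p = 0.354), and the Lcor paralog Lcorl had a change of 0.49 that did not pass. In the list of HIPK kinases and the p53 pathway, 6 of 23 rose in con/STZ and none fell. Hipk3 had 2770 and 2609 in VHLΔPT, 3236 and 2894 in con/STZ, 2750 and 2087 in VHLΔPT/STZ, and 1441, 1650 and 1382 in con, and was called in all 3 groups (0.85, 1.04 and 0.69). Hipk1 rose by 0.71 in con/STZ, and by the length-adjusted fit had 0.37, which did not pass. Among the p53 targets of the list, the largest rises called in con/STZ were Pmaip1 (Noxa, a cell death activator) by 1.15, Trp53inp1 by 1.12 and Ccng1 by 1.01. Their changes in VHLΔPT were -0.03, 0.52 and 0.12 and did not pass. In VHLΔPT/STZ, Trp53inp1 was also called (0.95, adjusted p = 0.0363, limma), while Pmaip1 (0.96) and Ccng1 (0.83) did not pass. In con/STZ, the p53 target Cdkn1a had a larger change of 1.48 (SE 0.80) that did not pass. Trp53 itself had -0.53 (adjusted p = 0.00784, limma), under the fold threshold, and both were named after their values were seen. The list's median was -0.07 in VHLΔPT, 0.37 in con/STZ and 0.26 in VHLΔPT/STZ.

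Of the LMBR1 relatives of Lmbrd2, 0 of 3 were called by limma in any of the 3 groups. In con/STZ, Lmbr1 had 0.23 and Lmbr1l -0.32, and Lmbrd1, a lysosomal cobalamin exporter component named here after its values were seen, had 0.50 (SE 0.08, adjusted p = 0.00516, limma), under the fold threshold. Among M1 aminopeptidases and proteins of insulin-regulated vesicles, 3 of 15 rose in con/STZ, namely the sorting receptor Sort1 (0.97), the Rab GTPase-activating protein Tbc1d4 (0.66) and the endocytic receptor Lrp1 (0.64), each a protein of the vesicles that carry Lnpep. With the length trend out, Lrp1 had 0.11 (adjusted p = 0.707, limma) and Tbc1d4 0.46, neither called, and Sort1 0.77. The peptidases Enpep and Anpep had 0.55 and 0.16 and were not called. Of the copper genes, 3 of 16 rose in con/STZ and 1 fell. The ferroxidases Cp (1.08) and Heph (0.73) rose, as did Xiap (0.70), a copper-binding inhibitor of apoptosis, while Sod1, the copper and zinc superoxide dismutase, fell by 0.63. Cp (0.79), Heph (0.52) and Xiap (0.41) were no longer called once the length trend was out. The other copper ATPase, Atp7b, had -0.30 and the importer Slc31a1 0.12, neither called. Cp varied widely in VHLΔPT, with 1128 and 2785. Xiap was also called in VHLΔPT (0.65, adjusted p = 0.0329, limma), and had 0.38 there with the length trend out, which was not called.

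Of the BTB-Kelch genes 3 of 25 rose in con/STZ. Klhl3, the adaptor that marks WNK kinases for degradation in the distal nephron, had 364 and 330 in VHLΔPT, 550 and 872 in con/STZ, 438 and 364 in VHLΔPT/STZ, and 268, 201 and 122 in con, and rose by 1.88 in con/STZ. Klhl28 rose by 1.60 and Klhl7 by 0.69 in con/STZ, Klhl24 by 0.73 in VHLΔPT, and Cul3 and Rbx1, the ligase core, had 0.24 and -0.39 in con/STZ and were not called. In the Rac list 4 of 26 rose in con/STZ and 1 fell. Trio rose in VHLΔPT (0.88) and con/STZ (0.97), and Prex2 (0.95) and Vav3 (0.85) rose in con/STZ, all 3 being exchange factors. With the length trend out, Trio had 0.36 in VHLΔPT and 0.35 in con/STZ and Prex2 0.43 in con/STZ, none called, Vav3 had 0.73, and the list's con/STZ median was -0.09 in place of 0.27. Rac2, the Rac of blood cells, fell by 1.42 in con/STZ, with 33.9 and 59.0 in con/STZ against 129, 113 and 122 in con. The Tiam1 paralog Tiam2 and the blood cell exchange factor Vav1 had -0.91 and -0.62 and did not pass.

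Around Pdpr, 1 of 13 genes rose and 1 fell in con/STZ. Pdk1, a kinase that switches pyruvate dehydrogenase off and a HIF target, had 1304 and 976 in VHLΔPT, 1752 and 1471 in con/STZ, 1165 and 1889 in VHLΔPT/STZ, and 572, 796 and 915 in con. It rose by 1.10 in con/STZ, and its sister kinase Pdk3 fell by 0.86. Pdp1 and Pdp2, the catalytic subunits of pyruvate dehydrogenase phosphatase, had 0.43 and -0.02 in con/STZ and were not called. All 4 poly(A) regulators that passed around Cpeb4, of 23, rose in con/STZ, namely Cpeb2 (1.05), Cpeb3 (0.67) and the deadenylase subunits Cnot1 (0.73) and Cnot6l (0.64). Cnot1 (0.20), Cnot6l (0.31) and Cpeb3 (0.48) were no longer called once the length trend was out, and Cpeb2 had 0.84. Cpeb2 was also called in VHLΔPT (0.77) and VHLΔPT/STZ (0.90), with 615 and 631 in VHLΔPT, 802 and 714 in con/STZ, 710 and 658 in VHLΔPT/STZ, and 445, 354 and 311 in con. Cnot1 was also called in VHLΔPT (0.62, adjusted p = 0.0407, limma), and had 0.17 there with the length trend out, which was not called. Cpeb1, the founding member, had -0.11 in con/STZ. Around Etnk1, 3 of 14 fell and 0 rose in con/STZ, while the list's median was -0.01 and 7 of the 14 were above 0. Etnppl, which breaks down phosphoethanolamine, fell by 1.90, Pisd, which makes phosphatidylethanolamine in mitochondria, by 0.71, and the second ethanolamine kinase Etnk2 by 0.62. Pcyt2, the next enzyme of the Etnk1 route, had -0.47 (adjusted p = 0.0116, limma) and was under the fold threshold, as were Chka (0.55, adjusted p = 0.0233, limma) and Cept1 (0.32, adjusted p = 0.0318, limma), named after their values were seen.

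**Figure D4:**
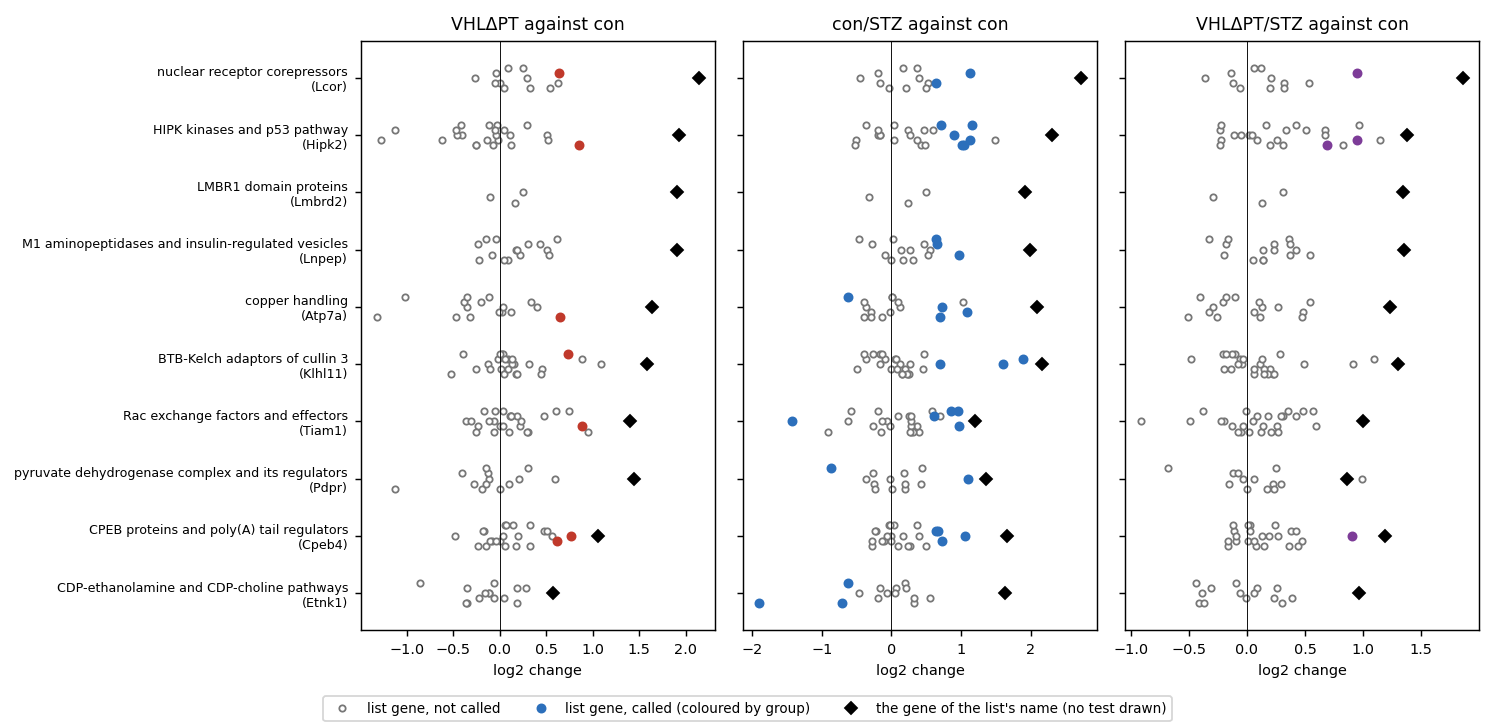
Log2 change against con (x axis) of the genes of the 10 partner lists (rows) in VHLΔPT, con/STZ and VHLΔPT/STZ, filled where called, with a black diamond for the gene that gives the list its name. Filled points are most frequent in con/STZ (32 of 170 list genes) and fewer in VHLΔPT (7) and VHLΔPT/STZ (4), and the ethanolamine row is the only one in con/STZ with falling calls alone.

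Lists of HIF targets and of nuclear RNAs were also read beside the 10 genes. Of 29 HIF targets, 0 were called in VHLΔPT and 0 in VHLΔPT/STZ (limma). Of all genes, 1.66% and 0.693% were called higher there, and 0.277% and 0.319% lower. The medians of the targets were 0.11 and 0.27, against -0.02 and -0.01 over all genes. In VHLΔPT 18 of the 29 and in VHLΔPT/STZ 23 were above 0, against 47.7% and 48.5% of all genes. In con/STZ 3 rose and 2 fell, against 8.79% and 6.87% of all genes. In con/STZ, Ero1l rose by 0.77 with Pdk1, whereas the carbonic anhydrase Car9 fell by 2.05. Car9 had 1016 and 556 in VHLΔPT, 158 and 147 in con/STZ, 465 and 288 in VHLΔPT/STZ, and 665, 724 and 530 in con. Vegfa had 0.30 in VHLΔPT and Slc2a1 0.12, neither called. Of 6 nuclear-retained RNAs, Malat1 rose by 1.26 in VHLΔPT and by 1.30 in con/STZ, and its VHLΔPT/STZ change of 0.36 did not pass. With the length trend out, its VHLΔPT change was 1.09 and no longer passed (adjusted p = 0.111, limma), and its con/STZ change was 1.13 (adjusted p = 0.0203, limma). Malat1 had 2553 and 2063 in VHLΔPT, 3398 and 1646 in con/STZ, 1212 and 1258 in VHLΔPT/STZ, and 881, 1108 and 907 in con. Neat1 had 0.73 in VHLΔPT and -0.40 in VHLΔPT/STZ, neither called.

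Summed levels of markers of some cell types were higher in the 3 altered groups than in con, as were the 10 genes. A sum follows its most abundant marker. The summed level of 3 thick ascending limb markers was 74433 to 97219 in VHLΔPT, 105404 to 118364 in con/STZ, 73783 to 86903 in VHLΔPT/STZ and 62699 to 71468 in con, and that of 2 distal convoluted tubule markers was 11880 to 15341 in VHLΔPT, 17852 to 22165 in con/STZ, 14409 to 15163 in VHLΔPT/STZ and 10307 to 11447 in con. The 6 proximal tubule markers summed to 269934 to 312817 in VHLΔPT, 270672 to 312742 in con/STZ, 262082 to 301719 in VHLΔPT/STZ and 242346 to 266268 in con. The 4 macrophage markers ran the other way, with 725 to 1052 in VHLΔPT, 672 to 812 in con/STZ, 816 to 914 in VHLΔPT/STZ and 1220 to 1758 in con, as did the 4 lymphocyte markers, with 22.2 to 50.2, 10.0 to 13.2, 14.9 to 31.1 and 49.5 to 59.4 in VHLΔPT, con/STZ, VHLΔPT/STZ and con. The 3 podocyte markers summed to 5704 to 6488 in VHLΔPT, 7064 to 8030 in con/STZ, 6334 to 6845 in VHLΔPT/STZ and 5406 to 5620 in con. In VHLΔPT and in VHLΔPT/STZ, only 1 marker of the lists named here was called against con, of the thick ascending limb (limma). The 3 principal cell markers summed to 9076 to 9971, 17385 to 19171, 10866 to 21087 and 7820 to 14415 in the same order. The 3 intercalated cell markers summed to 3072 to 3716, 3745 to 4064, 3231 to 3457 and 3349 to 3679. The 3 endothelial ones had 4744 to 5476, 4420 to 4684, 4207 to 4757 and 4175 to 4606. The 3 of mesangium and fibroblasts had 2311 to 4831, 1777 to 2200, 1846 to 2203 and 1918 to 2715. In con/STZ, 1 of 3 thick ascending limb, 1 of 2 distal convoluted tubule, 2 of 6 proximal tubule and 0 of 3 podocyte markers were called (limma). So were 1 of 3 intercalated cell, 3 of 4 macrophage and 1 of 4 lymphocyte markers, against 8.79% and 6.87% of all genes called higher and lower. These marker counts are without regard to direction. None of these markers was at 0 in all libraries. Their part in the rises of the 10 genes was not tested.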

How the data were processed

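RNA of mouse kidney cortex was sequenced from 9 poly(A)-selected, stranded libraries, each of 2 pooled mice. The submitters' processing notes name the build GRCm38 and the tools FastQC 0.11, MultiQC 1.4, Trim Galore 0.4, the aligner STAR 2.5.2b, the counter featureCounts 1.5.2 and StringTie 1.3.3b, without their settings. The deposited signal values are the authors' quantile normalized gene counts. Only 15.46% of the values were whole and library totals were nearly equal, so they were not treated as counts, and no interval for counting error can be given. The authors' fold changes and adjusted p-values (DESeq2 1.26.0 in R 3.6.3) were not used. Gene names turned into dates by a spreadsheet (24) were restored from their identifiers.

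After adding a pseudocount of 1 and taking log2, a model of 4 group means was fitted in limma 3.58.1 (R 4.3.3, trend option) to the 14437 genes averaging 10 or more, leaving 5 residual degrees of freedom. P-values were adjusted by Benjamini-Hochberg over these genes. Calls needed an adjusted p below 0.05 and, as in the study, a fold over 1.5. Fold changes on this scale understate the change of low genes. Groups and library numbers came from the sample titles. The 10 genes and the partner lists were chosen with earlier results of these data known, so no p is given for the 2 contrasts that chose the genes. Beside the 10 genes, the text names in each list the genes called in at least 1 comparison with con, or the 4 with the largest change in con/STZ where more were called, and the first 2 listed, and the 6 genes (mean of at least 50, no predicted genes) whose profile was most like the mean of the 10. A result that this rule would name is not reported here.

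Gene lengths, coordinates and transcripts are from GENCODE M21, promoters from RefSeq. The length trend was a loess (span 0.5) of each library's deviation on log10 exon length. The fit was tested on simulated data with 200 changed genes. The alternatives tried were median-of-ratios scaling, a larger pseudocount (10), a stricter filter (mean of 50) or none, limma without the trend, a replicate block, the length trend taken out, only the groups compared, and leaving out each library. Tables and plots used Python 3.11.15, numpy 2.4.6, pandas 2.3.3 and matplotlib 3.10.9.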

Additional observations from a re-analysis of the deposited data

Results flagged for a closer look

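Lmbrd2, Tiam1 and Pdpr had STZ changes in opposite directions in the 2 genotypes, in every library. In con kidneys both STZ libraries lay above all con libraries, while in VHLΔPT kidneys both STZ libraries lay below both libraries without STZ. The order within VHLΔPT kidneys held for 3 of the 10 genes, against 23.1% of all genes tested, a share near that background. The log2 change of VHLΔPT/STZ against VHLΔPT was -0.56 for Lmbrd2, -0.40 for Tiam1 and -0.57 for Pdpr, against 1.91, 1.20 and 1.36 in con/STZ against con. The difference between these changes was not tested. High values in VHLΔPT and con/STZ against con chose the genes, which by itself favours lower values in VHLΔPT/STZ than in VHLΔPT, and none of the 3 changes within VHLΔPT passed on its own (adjusted p of 0.448 to 0.551, limma).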

How the results depend on the processing

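Of the 10 genes, 4 passed in VHLΔPT/STZ against con. This became 7 with a filter at a mean of 50, 6 with median-of-ratios scaling, and 0 with limma without the trend, only the groups compared, the length trend taken out, or (chosen after seeing the data) without con 3, con/STZ 2 and VHLΔPT/STZ 2. It ran from 0 to 3 over the single libraries left out. In the other comparisons of VHLΔPT/STZ, 0 of the 10 passed under every alternative. The sample titles give each library its own 2 mice and name no pairs. Correlations between libraries with the same number ran from -0.109 to 0.273, with 4 of 12 above 0.1. They cannot decide whether the numbers mark pairs, since in groups of 2 libraries the deviations mirror each other and values repeat. With a replicate block, 0 of the 10 genes passed in VHLΔPT/STZ against con, and 1, 0 and 1857 of all genes were called in VHLΔPT/STZ, VHLΔPT and con/STZ against con, with 0, 0 and 33 list genes.

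Over all genes, 146 were called in VHLΔPT/STZ against con, 280 in VHLΔPT against con and 2261 in con/STZ against con. The first became 83 with no filter, 231 with a mean of 50, 1 without the trend or with the length trend out, and 3 with only the groups compared. The second became 0 under each of the last 3. The third became 1443 with the length trend out. Without the 3 libraries above, these were 0, 0 and 947. Over the single libraries left out they ran from 1 to 421, 0 to 464 and 1067 to 2380. Against con/STZ, 1 gene was called in VHLΔPT/STZ, 2 with a pseudocount of 10 and 0 to 3 over left-out libraries, and against VHLΔPT 1, with 0 to 211. Both were 0 without the 3 libraries. Of the list genes, 7 were called in VHLΔPT, 32 in con/STZ and 4 in VHLΔPT/STZ. They were 0, 29 and 0 without the trend, 0, 22 and 0 with the length trend out, 0, 32 and 0 with only the groups compared, 0, 20 and 0 without the 3 libraries, and 0 to 11, 17 to 33 and 0 to 8 over left-out libraries. Where such an omission left a group with 1 library, that library was assumed to vary as libraries of the other groups did.

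The median change of the 10 genes stayed between 1.45 and 1.74 in VHLΔPT and between 1.59 and 2.03 in con/STZ under all alternatives. In VHLΔPT/STZ against VHLΔPT, the Lcor change of -0.28 was 0.16 and the Klhl11 change of -0.28 was 0.17 without VHLΔPT/STZ 2, and likewise 0.16 and 0.17 without the 3 libraries. The Cpeb4 change of 0.15 was -0.08 without VHLΔPT/STZ 1. Over single libraries left out, these changes ran from -0.71 to 0.16 for Lcor, -0.73 to 0.17 for Klhl11 and -0.08 to 0.37 for Cpeb4. No other change of the 10 genes in the comparisons of VHLΔPT/STZ turned its direction. The cause of these shifts was not tested. The depth of the libraries is unknown and limits what the low values can show.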
